A study of Mus musculus with 4 samples.

Results

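Common TOP2B peaks at promoters were chosen by measured values: each is a peak of the Novus list that overlapped a Santa Cruz peak by 1 bp or more, with its centre no farther than 1 kb from where a protein-coding transcript starts (mm9, GENCODE M1). There were 263 such peaks among the 3564 peaks of the Novus list, of which 994 were common to both lists. Because overlap between the lists and distance to a start made the choice, closeness to starts and presence in both lists are described below and were not tested.

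TOP2B, topoisomerase IIβ, relieves torsional stress by cutting both strands of a duplex, letting another duplex pass and sealing the break. In non-dividing cells it is the main type II topoisomerase, and it is known for occupying accessible regulatory DNA, among it gene promoters and sites bound by the insulator protein CTCF. Many mammalian promoters are CpG islands, stretches rich in GC and in the CpG dinucleotide, and a divergent promoter is one from which transcription of neighbouring genes starts in opposite directions.

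ChIPseq was carried out on formaldehyde-fixed thymocytes of C57BL/6 mice aged 4 to 6 weeks, and libraries were made by ChIPmentation, in which a transposase adds the sequencing adaptors to chromatin held on the beads. There were 4 libraries, namely 1 with an anti-TOP2B antibody from Santa Cruz (sc13059), 1 with an anti-TOP2B antibody from Novus, 1 with an antibody to TOP2A from Abcam (ab52934) and 1 with IgG from Sigma (I8140). Thymocytes are a mixture of all developing T-cell stages, and no label says how many mice each library holds. The IgG library served the authors as control for peak calling, while its own values and those of the TOP2A library were not analysed here.

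The Santa Cruz list held 17754 peaks, all of 187 bp, and the Novus list 3564 peaks, all of equal width as well. Each antibody had 1 library, so there was no replicate error and no test was run between sets of peaks. Shares are given with their 95% interval (exact, Clopper-Pearson), which covers only the error of counting. The lists give no height or read number per peak, so that the depth behind a peak is unknown and every peak counts alike. Common peaks were 27.9% of all Novus peaks. Among the 1058 Novus peaks at promoters the share was 24.9% (interval 22.3 to 27.6), and of the 2691 Santa Cruz peaks at promoters 265 (9.85%) overlapped a Novus peak. Comparison was made with the 795 Novus-only and 2426 Santa Cruz-only peaks at promoters, and with the common peaks elsewhere, 319 inside coding genes and 412 between them.

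The peaks differed widely in sequence, and 5 are printed to show this range. They were taken from 100 of the 263 peaks, namely those that held no annotated exon base and lay outside 1 chromosome that was set aside, and read from mm9 5′ to 3′ on the strand of the gene. Of these 100, the peaks with the highest and the lowest GC content were those of Reps1, whose product takes part in endocytosis signalling (chr10:17775151-17775345, plus strand, centre 419 bp upstream of the start), and of Fh1, the fumarate hydratase of the citric acid cycle (chr1:177556071-177556265, minus strand, 402 bp upstream). Capitals mark CpG dinucleotides.
Reps1: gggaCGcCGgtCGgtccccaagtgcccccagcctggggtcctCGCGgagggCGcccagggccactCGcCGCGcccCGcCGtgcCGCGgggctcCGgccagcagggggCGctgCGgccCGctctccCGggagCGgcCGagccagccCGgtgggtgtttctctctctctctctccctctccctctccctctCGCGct
Fh1: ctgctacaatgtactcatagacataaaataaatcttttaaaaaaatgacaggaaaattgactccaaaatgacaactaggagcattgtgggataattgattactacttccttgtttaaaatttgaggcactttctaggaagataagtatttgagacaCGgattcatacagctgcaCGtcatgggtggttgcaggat
The GC content was 77.9% in the Reps1 peak, with 23 CpG, and 35.4% in the Fh1 peak, with 2 CpG.

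Matches to the letters of short promoter elements are shown in the next pair of peaks, and whether they act as elements there was not tested. Gbp3 encodes an interferon-inducible guanylate-binding protein, and its peak (chr3:142222797-142222991, plus strand, 122 bp upstream) held no CpG and a match to the TATA element TATAAA on the minus strand. Tinf2 encodes a protein of the shelterin complex at telomeres, and its peak (chr14:56300671-56300865, minus strand, 114 bp upstream) held TGACGTCA, the cAMP response element. Capitals mark these matches.
Gbp3: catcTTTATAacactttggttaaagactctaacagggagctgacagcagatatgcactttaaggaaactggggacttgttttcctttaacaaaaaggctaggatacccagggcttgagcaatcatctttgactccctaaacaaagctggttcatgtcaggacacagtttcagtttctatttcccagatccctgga
Tinf2: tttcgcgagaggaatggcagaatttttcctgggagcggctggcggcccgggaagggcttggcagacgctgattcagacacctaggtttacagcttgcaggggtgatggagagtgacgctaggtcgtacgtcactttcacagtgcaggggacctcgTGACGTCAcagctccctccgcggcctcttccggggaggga

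The last peak shows a match to the CTCF core motif. It is that of Clcn4-2, a chloride channel gene (chr7:7252243-7252437, minus strand, 118 bp upstream). Within the peak itself its CpG ratio was the highest of these 100 peaks, 1.09. In 500 bp around the centre, the window used below, the ratio was 0.728. Capitals mark the match to the CTCF core.
Clcn4-2: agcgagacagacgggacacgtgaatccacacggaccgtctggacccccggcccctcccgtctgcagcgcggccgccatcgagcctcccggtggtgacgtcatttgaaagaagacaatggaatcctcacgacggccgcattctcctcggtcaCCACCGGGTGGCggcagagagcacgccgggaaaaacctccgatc

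Common promoter peaks lay on both sides of the start and mostly close to it. Of the 263 peak centres, 135 lay upstream (51.3%, 45.1 to 57.5), 127 downstream (48.3%, 42.1 to 54.5) and 1 on the start itself. With only the most 5′ start of each gene, the downstream share was 54.5%. The median distance was 136 bp (quartiles 64 and 311.5), and 104 centres (39.5%) lay within 100 bp, which is about the reach of the peak itself. Within 250 bp lay 177 (67.3%, 61.3 to 72.9) and within 500 bp 221 (84.0%). In steps of 250 bp, 89 centres lay in the stretch just upstream and 87 in that just downstream, whereas the next steps outward held 28 upstream and 16 downstream.

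The peaks of one antibody alone were measured in the same way, and with the nearest of all coding starts. The downstream share was 56.6% (53.1 to 60.1) for Novus-only and 52.9% (50.9 to 54.9) for Santa Cruz-only peaks. Their median distances were 173 bp and 247 bp, and 63.5% and 50.3% lay within 250 bp. Common and Novus-only peaks differed most from about 250 to 500 bp downstream, a stretch that held 6.08% of common (3.52 to 9.69) and 16.0% of Novus-only peaks (13.5 to 18.7). Common and Santa Cruz-only peaks differed most in the 250 bp just downstream, with 33.1% (27.4 to 39.1) and 24.0% (22.3 to 25.8). Of the Novus promoter peaks, 28.3% of upstream ones (24.3 to 32.6) and 22% of downstream ones (18.7 to 25.6) were common.

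**Figure D1:**
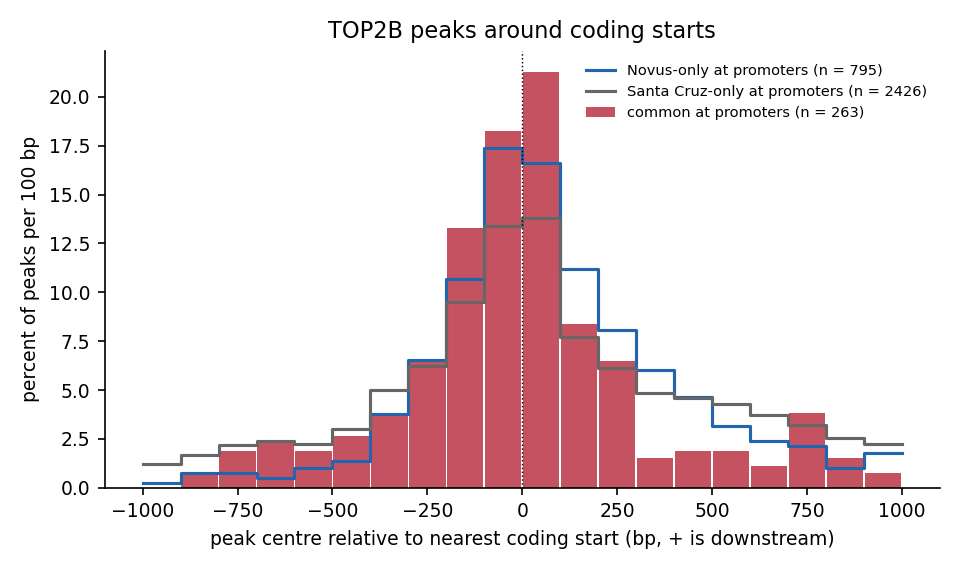
Percent of peaks per 100 bp (vertical axis) by the signed distance of the peak centre from the nearest coding start in bp (horizontal axis, positive is downstream), for 263 common (bars), 795 Novus-only and 2426 Santa Cruz-only peaks (lines). The bars are highest within 100 bp of the start on both sides. The Novus-only line lies above them between 100 and 700 bp downstream, by most from 300 to 500 bp.

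The 5 peaks closest to a start were those of Nmnat3, Myo10, Zfp961, Aga and Pdzd9. The centre for Nmnat3, an enzyme of mitochondrial NAD synthesis, fell on the start base (chr9:98196926-98197120), with the Santa Cruz centre 42 bp upstream. The peak of Myo10, an unconventional myosin of filopodia, was centred 1 bp upstream, and its Santa Cruz partner 184 bp upstream, so that the calls shared 8 bp. The peaks of Zfp961, Aga (a lysosomal amidase) and Pdzd9 were centred 3 bp upstream, 4 bp downstream and 5 bp downstream. At the 1-kb limit of the rule, the farthest members were Cd164 at 859 bp upstream, Bend3 at 951 bp downstream and Baz1a at 982 bp downstream. Common peaks just outside it lay 1003 bp downstream of Tgfbr3, 1016 bp upstream of Psmb8 and 1040 bp upstream of Afmid.

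With respect to the annotation, 106 of the centres (40.3%, 34.3 to 46.5) lay outside any coding transcript, 72 in an untranslated exon (27.4%), 66 in an intron (25.1%) and 19 in a coding exon (7.22%). The nearest start was the most 5′ start of its gene for 187 peaks (71.1%, 65.2 to 76.5). For 19 peaks it was an internal start over 1 kb away from the most 5′ one. Of these, 16 lay in sequence that was not CpG-rich, such as the peak at an internal start of Fhit, a gene at a fragile site, and that of Jmjd1c, a gene for a histone demethylase family member.

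Members at starts with several peaks were few. P4ha1, a subunit of the prolyl hydroxylase that modifies collagen, was the gene with more than 1 member at a start, with centres 115 bp and 531 bp downstream and Santa Cruz centres 53 bp and 610 bp downstream. At the starts of 15 members the Novus list held at least 2 peaks, and at those of 28 members the Santa Cruz list did. The distance to the next common peak had a median of 444 kb, and 3 members had one within 10 kb.

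The calls made with each antibody overlap by the rule, which bounds the distance between their centres. Centres were a median of 80 bp apart (quartiles 39 and 118), and 188 bp at most, and the calls shared a median of 111 bp. With direction counted along the gene, 125 Santa Cruz centres lay upstream of the Novus centre and 136 downstream, with a median shift of 7 bp. Neither antibody's centre was regularly nearer to the start: the Santa Cruz centre was closer in 124 peaks and farther in 137. In 39 peaks (14.8%, 10.8 to 19.7) the 2 centres fell on opposite sides of the start. One such peak was at Apaf1, the scaffold of the apoptosome, with the Novus centre 83 bp upstream, the Santa Cruz centre 105 bp downstream and 3 bp shared. A further one was at Klf4, a zinc finger transcription factor, with centres 59 bp upstream and 89 bp downstream.

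**Figure D2:**
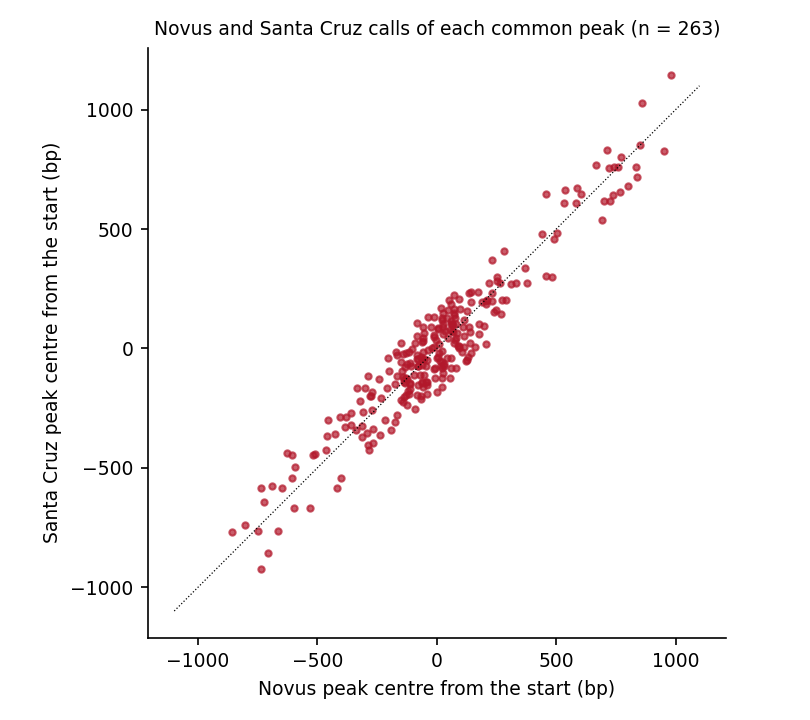
Position of the Santa Cruz centre (vertical axis, bp) against that of the Novus centre (horizontal axis, bp), both relative to the start that is nearest to the Novus centre, for the 263 common promoter peaks; each point is a peak and the dotted line marks equal positions. Points lie on both sides of the line in similar numbers, 125 with the Santa Cruz centre upstream and 136 with it downstream.

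Common promoter peaks lay mostly in CpG-rich sequence. In the 500 bp around the centre, GC content had a median of 60.2% (quartiles 55.6 and 66) and the CpG ratio, the observed number of CpG over that expected from the content of C and G, a median of 0.726 (quartiles 0.608 and 0.848). With CpG-rich defined as at least 55% GC and a CpG ratio of at least 0.65, 157 peaks were CpG-rich (59.7%, 53.5 to 65.7). Upstream and downstream peaks were alike in this, at 60% (51.2 to 68.3) and 59.1% (50 to 67.7). The CpG-rich share was 63.8% (60.3 to 67.1) in Novus-only and 46.4% (44.4 to 48.4) in Santa Cruz-only promoter peaks. It was 3.45% in common peaks inside genes and 3.64% in those between genes, where the median GC content was 48.4% and 48.9%. Of Novus promoter peaks in CpG-rich sequence 23.6% (20.5 to 27.1) were common, and of the others 26.9% (22.6 to 31.6).

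At both ends of the range stood genes that were picked after their values were seen. The lowest CpG ratios were those at Pnkd (0.0734, 2 CpG in 500 bp), Gbp3 (0.117, 3 CpG) and Dennd1c (0.133, 5 CpG). The highest were at Tmem11, a gene for a mitochondrial inner membrane protein (1.11, 66 CpG), Lsm6, a component of the U6 snRNP (1.10, 61 CpG), and Zbed4 (1.10, 49 CpG).

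**Figure D3:**
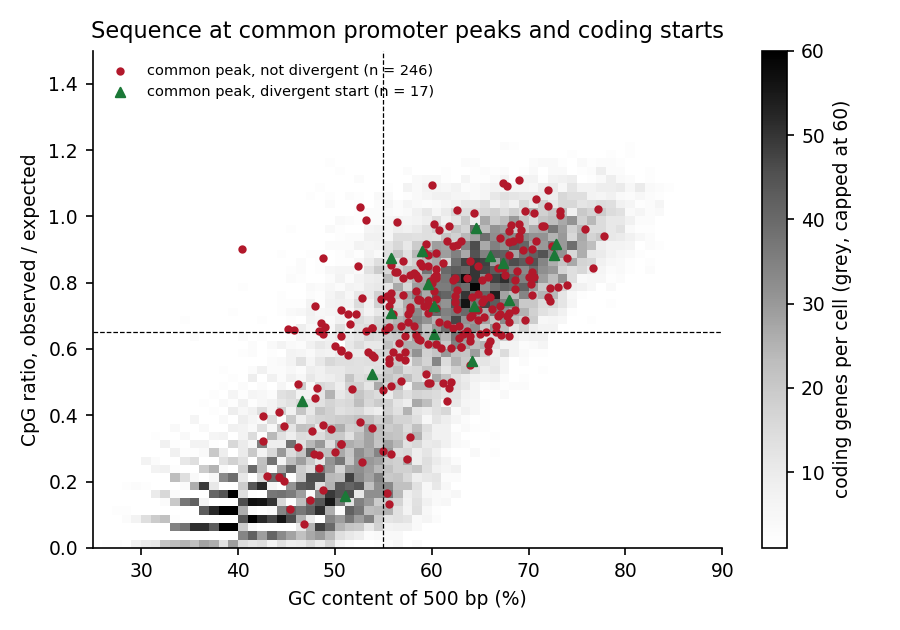
CpG ratio (vertical axis) against GC content in percent (horizontal axis) in 500 bp around each of the 263 common promoter peaks (points, with triangles at divergent starts) and around the most 5′ start of all 22348 coding genes (grey, genes per cell); dashed lines mark 55% and 0.65. Of the members, 157 fall in the upper right field, and 106 outside it.

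The genes were measured at their own starts as well. Coding genes with a common peak within 1 kb of any start numbered 283, or 1.27% of 22348, and at their most 5′ start 73.9% were CpG-rich (68.3 to 78.9), beside 42.2% of all coding genes. The share was 73.3% for genes with any Novus peak and 67.9% for genes with any Santa Cruz peak. Around the starts nearest to the members, the mean GC content reached 66.4% in the 50 bp just upstream and CpG density 9.35 per 100 bp in the 50 bp just downstream, beside 58.8% and 6.36 for all coding genes. Farther out, at 975 bp upstream, the means were 43.4% GC and 1.57 CpG per 100 bp, beside 44.4% and 1.28.

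GC skew, the excess of G over C on the coding strand, was positive in the 500 bp after the start for 73.7% of the members' starts, with a median of 0.068. It was positive for 63.2% of all coding genes, with a median of 0.043, and for 69.5% of those with CpG-rich starts, with a median of 0.056. Members were measured at the nearest start and all coding genes at the most 5′ one. At the most 5′ start the median was 0.0631 for genes with a common peak. It was 0.0625 for genes with any Novus peak and 0.0565 for genes with any Santa Cruz peak. The 283 genes with a common peak were also long, with a median length of 33550 bp (quartiles 14731.5 and 61679). The median was 30002 bp for genes with any Novus peak, 26412 bp for genes with any Santa Cruz peak and 15427 bp for all coding genes. Genes over 100 kb made up 16.3% of the 283 (12.2 to 21.1), beside 10.7% of all coding genes. Genes that host a small nucleolar RNA made up 7 of the 283 (2.47%, 1.00 to 5.03), beside 1.2% of all.

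**Figure D4:**
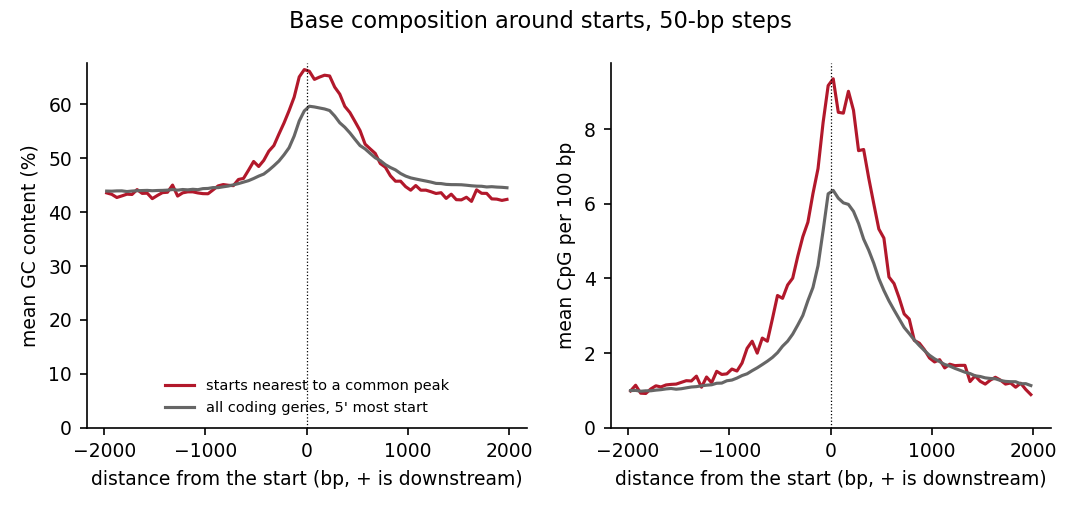
Mean GC content in percent (left panel) and mean number of CpG per 100 bp (right panel) in steps of 50 bp, by distance from the start in bp, at the starts nearest to the 263 common promoter peaks and at the most 5′ starts of 22348 coding genes. The members' lines peak at the start, at 66.4% GC and 9.35 CpG per 100 bp, above the lines for all coding genes, and come close to them about 1 kb away.

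Members outside CpG-rich sequence were placed differently from those inside it. The 106 such peaks had a median distance of 224 bp from the start (quartiles 81 and 529.25), and 54.7% lay within 250 bp (44.8 to 64.4). In the 157 CpG-rich members the median was 114 bp (quartiles 59 and 233), and 75.8% lay within 250 bp (68.3 to 82.3). An internal start over 1 kb from the most 5′ one was the nearest in 15.1% of the former (8.88 to 23.4) and in 1.91% of the latter (0.396 to 5.48). Class and distance are not independent measures, because composition was read around the peak centre. At the members' starts, mean GC content fell from 66.4% in the 50 bp just upstream to 48.4% at 475 bp upstream.

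Matches to the CTCF core motif, allowing 1 mismatch on either strand, were split in a similar way. Such a match stood within 250 bp of 46 centres (17.5%, 13.1 to 22.6). The share was 9.18% (7.27 to 11.4) in Novus-only and 9.93% (8.77 to 11.2) in Santa Cruz-only promoter peaks and 6.69% at all coding starts, while in common peaks inside genes it was 45.8% (40.2 to 51.4) and between genes 48.5% (43.6 to 53.5). Among the members it was 25.5% (17.5 to 34.9) outside CpG-rich sequence and 12.1% (7.45 to 18.3) inside it. In the other promoter sets this split was small: Novus-only peaks had 9.38% outside and 9.07% inside, Santa Cruz-only peaks 10.4% and 9.42%, and coding starts 5.61% and 8.17%. The share was also 27.9% (18.8 to 38.6) in members over 250 bp from the start and 12.4% (7.96 to 18.2) in nearer ones.

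Few of these matches were at the centre of the peak. The median distance of the nearest match from the centre was 109 bp in the 46 members. It was 108 bp in Novus-only and 79 bp in Santa Cruz-only promoter peaks. In common peaks inside genes it was 58.5 bp and in those between genes 62.5 bp. Within 50 bp of the centre, 11 members had a match. Those 11, chosen after their values were seen, were the peaks at L3mbtl3, Pcbd2, Wdr38, Pdzd9, Reps1, H2-DMa, Abt1, 8030462N17Rik, Rab27a, Pou2f2 and Cyp1b1. Among them, L3mbtl3 (a chromatin reader gene) had its match 1 bp from the centre, H2-DMa (a chaperone of MHC class II peptide loading) 15 bp, and Pou2f2 (the lymphoid transcription factor Oct-2) 45 bp. A match is a description of the letters and does not show that CTCF was bound.

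Other promoter elements were compared at all coding starts and within and outside CpG-rich sequence. The GC box GGGCGG, the element of Sp1, was within 250 bp of 71.5% of centres (65.6 to 76.9), beside 53.0% of all coding starts. Within CpG-rich sequence the shares were 87.3% of members (81.0 to 92.0) and 87.8% of starts, and outside it 48.1% of members (38.3 to 58.0) and 27.6% of starts. TATAAA was near 8.37% of members (5.32 to 12.4) and 16.6% of all coding starts, and in CpG-rich sequence 6.37% (3.10 to 11.4) and 5.62%. Outside it TATAAA was near 11.3% of members (5.99 to 18.9) and 24.6% of starts. CCAAT, bound by NF-Y, was near 39.5% (33.6 to 45.7) and 48.0%, with 39.5% (31.8 to 47.6) and 41.9% in CpG-rich sequence and 39.6% (30.3 to 49.6) and 52.4% outside it. The ETS element CCGGAAG was near 17.1% (12.8 to 22.2) and 14.5%, and in CpG-rich sequence 24.2% and 24.7%, and outside it 6.6% and 7%. In Novus-only promoter peaks the shares were 70.4% for GGGCGG, 9.69% for TATAAA and 37.5% for CCAAT. Outside CpG-rich sequence they were 47.2%, 15.3% and 44.1%. The members' intervals held all of these, so these shares do not set common peaks apart from Novus-only ones. In Santa Cruz-only promoter peaks GGGCGG was near 58.9%, and outside CpG-rich sequence 34.7%, both below the members' intervals. CCAAT was near 41.3% of them, and the interval for TATAAA was 10.7 to 13.4. All motifs were searched on both strands.

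For the remaining elements the interval of the members held the value of all coding starts. This was so for TGACGTCA (2.28% of members, 2.62% of starts), the E-box CACGTG (9.51%, 10.4%), the NRF1 element GCATGCGC (4.56%, 3.94%), the YY1 element AAGATGG (11.8%, 10.8%), CTACAATTC (1.14%, 0.483%), the AP-1 element TGANTCA (6.84%, 9.24%; TGACGTCA does not contain it) and the RUNX element TGTGGT (23.2%, 23.3%).

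The share of divergent starts among the nearest starts was near that of all coding genes, and it depended on which genes counted as partners. With a divergent start defined as one that has the start of another coding gene, on the opposite strand, up to 1000 bp upstream, 17 members (6.46%, 3.81 to 10.1) had one as nearest start. This interval held the 8.67% of all coding genes, measured at their most 5′ start. The share was 9.94% (7.95 to 12.2) in Novus-only and 7.01% (6.02 to 8.10) in Santa Cruz-only promoter peaks. With partner genes of every type it was 12.5% for the members, and with the starts of transcripts of every type 12.2%. No share of all coding genes under these wider definitions stands beside them. Of the Novus peaks at divergent starts 17.7% (10.7 to 26.8) were common, and of those at other starts 25.6% (22.8 to 28.5). Counted by genes instead, where both genes of a pair count, 35 of the 283 genes with a common peak (12.4%, 8.77 to 16.8) had a divergent start. This was so for 16.2% of genes with any Novus peak (14.1 to 18.5), 13.5% of genes with any Santa Cruz peak (12.2 to 14.9) and 8.67% of all coding genes.

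The starts of these 17 pairs were a median of 214 bp apart, beside 141 bp for all divergent coding starts, and 12 of the peaks were CpG-rich. The centre lay between the starts in 6, downstream of the nearest start in 11. The 5 pairs with the shortest gap were Entpd5 and 2900006K08Rik at 57 bp, Phospho2 and 4930578N16Rik at 75 bp, 2810422O20Rik and BC055324 at 93 bp, Mudeng and Exoc5 at 99 bp, and Exosc8 and Alg5 at 146 bp. In each of these 5 the peak centre lay inside one of the genes, though the peaks of 2810422O20Rik, Mudeng and Exosc8 reached into the stretch between the starts. The centres were 737 bp downstream in Entpd5 (a nucleotide phosphatase of the endoplasmic reticulum), 839 bp in Phospho2, 88 bp in 2810422O20Rik, 60 bp in Mudeng and 65 bp in Exosc8, a subunit of the RNA exosome. At Apaf1 and Ikbip, 170 bp apart, the Novus centre lay between the starts.

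Few genes of any single class had a common peak. The counts of the gene lists below are to be read against 1.27% of all coding genes with a common peak, 5.11% with any Novus peak and 12.1% with any Santa Cruz peak. In none of the lists did the interval of the common share leave out 1.27%, except for chromatin regulator genes and for olfactory and vomeronasal receptor genes. For chromatin regulator genes the lower bound, 1.31%, was just above it, and the intervals were not adjusted for the number of lists. The lists were drawn up with earlier results of these data known, so their shares are descriptions.

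Chromatin regulator genes had a common peak in 5 of 125 (4%, 1.31 to 9.09). Any Novus peak was found at 16 of the 125 (12.8%) and any Santa Cruz peak at 33 (26.4%), also above the shares of all coding genes. The 5 genes with a common peak are named here. They were Ino80d, of a nucleosome remodelling complex (20 bp downstream), Jmjd1c (94 bp downstream), Arid1b, a subunit of BAF remodelling complexes (463 bp upstream), Ezh2, the methyltransferase of Polycomb complex PRC2 (538 bp downstream), and Baz1a, of the ACF and CHRAC complexes (982 bp downstream). In Ino80d and Jmjd1c the sequence was not CpG-rich, with CpG ratios of 0.362 and 0.594, whereas Arid1b and Ezh2 had 0.844 and 0.869. For Baz1a the Santa Cruz centre was 1147 bp downstream. Pds5a, a regulator of cohesin on chromatin, was the one gene with a common peak (665 bp downstream) among 25 genes for cohesin, CTCF and topoisomerases.

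Genes of T cells had any Santa Cruz peak at higher shares than the 12.1% of all coding genes. Their common shares rested on 2 and 0 genes, and both intervals held the 1.27% of all coding genes. T-cell receptor, coreceptor, signalling and homing genes had any Santa Cruz peak in 17 of 39 (43.6%), any Novus peak in 4 (10.3%) and a common peak in 2 (5.13%, 0.627 to 17.3). One of them was Ptpn22, a phosphatase that restrains T-cell receptor signalling, with centres 287 bp (Novus) and 114 bp (Santa Cruz) upstream. Its sequence was not CpG-rich, with a CpG ratio of 0.281. T-lineage transcription factor genes had any Santa Cruz peak in 13 of 36 (36.1%) and a common peak in 0 of 36, where the interval reached 9.74%.

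Marker genes gave 0 common peaks in each list, in 10 for T cells, 7 for B cells, 6 for myeloid cells, 6 for thymic epithelium and 4 for erythroid cells. Any Santa Cruz peak was found in 4 of the T-cell, 2 of the B-cell, 1 of the thymic epithelium and 0 of the myeloid and erythroid genes. Peak lists do not measure expression, and the labelled cell type could not be checked further from them.

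Housekeeping classes had common peaks in 0 to 4 genes each, and every interval held the 1.27% of all coding genes. Splicing and RNA-binding genes had 4 of 192 (2.08%): Hnrnpf, an hnRNP protein (14 bp downstream), Sf3b4 (36 bp downstream) and Sf3b2 (300 bp upstream), both of the SF3b complex of the U2 snRNP, and Srsf1, a splicing factor rich in arginine and serine (38 bp upstream). Mitochondrial ribosome genes had 3 of 77 (3.90%, 0.811 to 11.0): Mrps16 (13 bp upstream), Mrpl17 (25 bp downstream) and Mrps14 (272 bp upstream). Ribosomal protein genes had 1 of 82 (Rps13, 130 bp upstream), respiratory chain genes 1 of 93 (Uqcrc2, 85 bp upstream) and translation factor genes 1 of 69 (Eif2ak4, in fact a kinase that inhibits eIF2, 58 bp upstream). Proteasome genes had 0 of 52, where the interval reached 6.85%, although 9 of them (17.3%) had a Novus peak and 11 (21.2%) a Santa Cruz peak.

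Stress and survival genes gave counts of 2 or 3. Heat shock and chaperone genes had 3 of 96 (3.13%), with Dnajb4 (111 bp upstream), Hspa4l (142 bp downstream) and Hsph1 (518 bp upstream). Immediate early and stress response genes had 2 of 50 (4%, 0.488 to 13.7), with Klf4 (59 bp upstream) and Rgs2, a regulator of G-protein signalling (271 bp upstream). Survival and death genes had 2 of 36 (5.56%, 0.680 to 18.7), with Apaf1 and with Birc3, an inhibitor of apoptosis protein of NF-κB signalling (229 bp downstream).

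Genes of the cell cycle and of DNA repair gave counts of 2 and 1, and their intervals held the 1.27% of all coding genes. Cell cycle and replication genes had 2 of 119 (1.68%, 0.204 to 5.94), with Cdk6, a D-type cyclin-dependent kinase (174 bp downstream), and Cdc14b, a phosphatase (287 bp upstream). DNA damage response genes had 1 of 43 (2.33%, 0.0589 to 12.3), Msh6, a mismatch recognition protein (360 bp upstream). Replication-dependent histone genes had 1 of 66, Hist1h4j (664 bp upstream). Zinc finger (Zfp) genes had 6 of 371 (1.62%), the closest being Zfp961, Zfp956, Zfp64, Zfp438 and Zfp560. Olfactory and vomeronasal receptor genes had 1 of 1441 (0.0694%, 0.0018 to 0.386), Olfr15, whose peak lay 772 bp downstream in its coding exon.

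**Figure D5:**
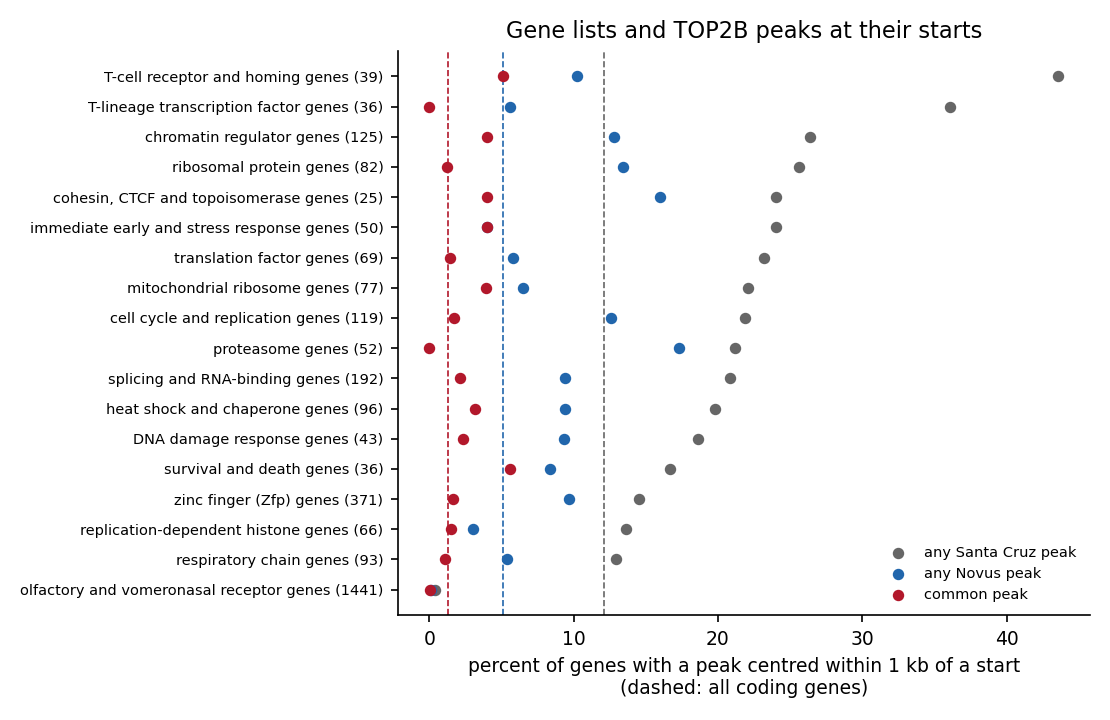
Percent of the genes in each list (horizontal axis) with a common, any Novus or any Santa Cruz peak centred within 1 kb of a start, for the 18 lists of at least 20 genes (vertical axis, number of genes in parentheses, ordered by the Santa Cruz share); dashed lines give the shares of all coding genes, 1.27%, 5.11% and 12.1%. Common shares lie between 0 and 5.56%, while the Santa Cruz share is highest in the T-cell receptor list, at 43.6%.

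Of the 283 genes, 94 whose products have a well-known role were sorted by hand into 8 classes after the members were known, so what follows describes them and gives no enrichment. Of all members 59.7% were CpG-rich. Among genes of the fixed lists, with or without a peak, 7.69% of T-cell receptor, coreceptor, signalling and homing genes had CpG-rich starts. This share was 70.1% in mitochondrial ribosome genes and 75.5% in splicing and RNA-binding genes. The lymphocyte and immune genes numbered 15, and 12 of them had peaks outside CpG-rich sequence, with a median CpG ratio of 0.335. Among them were Icos, a costimulatory receptor of T cells (190 bp upstream, CpG ratio 0.324), Dock2, an activator of Rac in lymphocyte migration (52 bp downstream, 0.335), Was, the actin regulator WASP (139 bp downstream, 0.164), and Slfn8, a Schlafen family gene (151 bp upstream, 0.303). The 3 in CpG-rich sequence were Malt1, a paracaspase of NF-κB signalling (167 bp upstream), Stim2, a calcium sensor of the endoplasmic reticulum (700 bp downstream), and Erap1, a peptidase that trims peptides for MHC class I (94 bp downstream).

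In several of the other classes most peaks were CpG-rich, as were 59.7% of all members. These were 12 of 14 mitochondrial genes, 10 of 15 RNA processing genes, 10 of 14 chromatin and transcription factor genes, 8 of 12 genes of vesicle traffic and autophagy and 6 of 7 ubiquitin genes. Examples are Dnm1l, the GTPase of mitochondrial fission (24 bp downstream), Pnn, a protein of nuclear speckles (85 bp upstream), Tbpl1, a relative of the TATA-binding protein (17 bp downstream), Atg10, an E2-like enzyme of autophagy (64 bp upstream), and Herc1, a giant ubiquitin ligase (138 bp upstream). Among stress, chaperone and cell death genes 5 of 11 were CpG-rich, and among DNA repair and telomere genes 3 of 6, one of them Ercc4, the XPF nuclease (126 bp downstream).

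Median distances in these classes were 59 bp in ubiquitin genes, 85 bp in RNA processing genes and 167 bp in lymphocyte and immune genes, and the longest was 330 bp, in chromatin and transcription factor genes. In that last class the peaks reached from 17 bp (Tbpl1) to 982 bp (Baz1a), and 10 of 14 were downstream. Mitochondrial genes had 10 of 14 upstream, ubiquitin genes 5 of 7, stress, chaperone and cell death genes 7 of 11, and vesicle traffic and autophagy genes 7 of 12. Lymphocyte and immune genes had 8 of 15 upstream, DNA repair and telomere genes 3 of 6 and RNA processing genes 5 of 15. Of all members 51.3% were upstream and 48.3% downstream, and differences between these small classes were not tested.

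By chromosome, from 0.812% (chromosome 4) to 2.13% (chromosome 18) of the coding genes of an autosome had a common peak. On the X chromosome it was 1 of 932 (0.107%, 0.0027 to 0.596), the gene being Was. Any Novus peak was found at 23 X-linked genes (2.47%) and any Santa Cruz peak at 34 (3.65%), also below the shares of all coding genes.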

How the data were processed

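ChIPseq was performed on mouse thymocytes with TOP2B antibodies from Santa Cruz and Novus, 1 library each. Reads were aligned to mm9 with Bowtie 1.2.0 and peaks were called per library with HOMER in factor style, filtered at 10-fold enrichment over the IgG library. The deposited lists give the chromosome, start and end of each peak, and the score in the authors' lists is 0 throughout and was not used. No read numbers are listed, so the depth and precision of single peaks are unknown.

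Groups were taken from the antibody labels. Positions were compared with protein-coding transcripts of GENCODE M1 and sequence with NCBIM37, the same build as mm9. Side and distance were measured from the peak centre to the nearest start along its gene, and composition and motifs in 500 bp around the centre, or around the most 5′ start for all genes. The CTCF core was searched with up to 1 mismatch and other motifs exactly. No comparison across replicates, and so no test, was possible. Alternatives were other overlap rules, promoter distances, start sets and windows. Distances, overlaps, pairs and motif searches were tested on simulated data.

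Members and gene lists were chosen with earlier results of these data known. Genes named are those of the lists (up to 5 each, by distance), the 5 members closest to a start, genes with several members, 3 members inside and 3 peaks outside the limit, the 5 tightest divergent pairs, and the members whose sequence is shown (extremes of composition, 1 divergent, 1 per motif, of which some are printed). Others were picked after their values were seen. A gene and a sequence that this rule names are not reported here. 1 name in each of 3 lists was not matched. Python 3.11.15, numpy 2.4.6, scipy 1.17.1, pandas 2.3.3, matplotlib 3.10.9, samtools 1.23.1 and pyfaidx 0.9.0.4 served for the computations.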

Additional observations from a re-analysis of the deposited data

How the results depend on the processing

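Of 77 combinations of a result and an alternative setting, 62 left the value within the 95% interval of the share or median as reported, or the number of peaks within 1.5 times. The number of common promoter peaks was 155 under the rule that 50% or more of each peak be shared and 168 with centres within 100 bp, instead of 263. With a promoter distance of 2.5 kb or 500 bp, the median distance was 170 bp or 112 bp, and the share within 250 bp 58.4% or 80.1%, since the limit itself decides which peaks count. The downstream share was 54.5% with 1 start per gene. The divergent share rose from 6.46% to 12.2% with the starts of transcripts of every type and to 12.5% with partner genes of every type. Median GC content was 62.6% within the peak itself and 57.9% in 1000 bp, where 51.3% of peaks were CpG-rich. The share of coding genes with a common peak was 1.06% at 500 bp, 1.48% at 2.5 kb and 0.738% with the 50% overlap. The CpG ratio stayed between 0.705 and 0.743 in its 10 alternatives. No paired analysis was possible because there was 1 library per antibody and no test. Without read numbers or a replicate, neither the strength of a peak nor the chance that a repeat would call it could be estimated.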
